A study of Mus musculus with 8 samples.

Results

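Whole mouse eyes collected on either side of lights-off were compared with whole eyes collected on either side of lights-on. All 8 RNA-seq libraries of the series entered, 4 of 8 on each side. The lights-off side holds ZT9 and ZT15 and the lights-on side ZT21 and ZT3, where ZT is the time in hours after lights-on. Each time has 1 library of WT mice (Cre-) and 1 of cKO mice (Cre+), with a deletion of Nr3c1, which encodes the receptor for glucocorticoids, in the retina only. The Cre driver is not given in the sources used here. All mice were males of 12 weeks under 12 h of light and 12 h of darkness, without drug treatment, and each library held equal amounts of RNA from 3 mice. There is no repeat library of any genotype and time. The 4 libraries of a side (n = 4 throughout) therefore include both of its times and both genotypes, and a p-value rests on how these 8 pools differ, not on how mice differ.

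Total counts ran from 11748995 to 15255578 in WT and from 13672717 to 20309611 in cKO. Nr3c1 had 78.2, 145.1, 126.7 and 133.7 CPM in WT at ZT3, ZT9, ZT15 and ZT21 and 38.2, 35.3, 36.4 and 32.5 CPM in cKO, where CPM is the gene's share of the TMM-adjusted library size, scaled as in edgeR. All cKO libraries were below all WT libraries. By its labels the tissue is ciliary body and the cell type nonpigmented epithelium, whereas the protocol describes whole eyes. Genes of the lens took 14.7 to 24.03% of the counts, those of rods 4.82 to 5.85% and those of the nonpigmented ciliary epithelium 0.107 to 0.135%, so the libraries hold transcripts of several eye tissues.

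The circadian clock of mammalian cells is a loop in which ARNTL and CLOCK activate the Per and Cry repressor genes, and nuclear receptors of the REV-ERB and ROR families control Arntl. Output factors such as DBP, which binds D-box sequences, carry the rhythm to other genes. In the retina, light and the clock together set the daily course of photoreceptor metabolism, outer segment renewal and dopamine release.

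Promoters are shown for the genes named below whose RefSeq window holds one of 8 motifs searched, followed by that of Dbp, which was added after its values were seen because it encodes the D-box factor. Each window is 300 bases long, 250 before and 50 after the annotated start, in build GRCm38.p6, and 21 of the 28 named genes had one. Zfp385b is shown at chr2:77703223-77703522 on the minus strand, 1 of its annotated starts. Its capitals at position -236 from the start match the letters searched for the D-box, TTATGNAA, where N stands for any base. Adamts1 at chr16:85803064-85803363 on the minus strand and Fam172a at chr13:77708440-77708739 on the plus strand hold the sterol regulatory element TCACNCCAC in capitals at positions -161 and -249. Dbp at chr7:45704997-45705296 on the plus strand holds none of the 8 motifs.
Zfp385b: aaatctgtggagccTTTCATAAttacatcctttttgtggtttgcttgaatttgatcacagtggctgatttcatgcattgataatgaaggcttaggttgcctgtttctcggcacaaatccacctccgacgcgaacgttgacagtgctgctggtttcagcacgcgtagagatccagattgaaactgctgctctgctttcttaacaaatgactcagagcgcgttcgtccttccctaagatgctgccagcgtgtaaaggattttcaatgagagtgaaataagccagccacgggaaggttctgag
Adamts1: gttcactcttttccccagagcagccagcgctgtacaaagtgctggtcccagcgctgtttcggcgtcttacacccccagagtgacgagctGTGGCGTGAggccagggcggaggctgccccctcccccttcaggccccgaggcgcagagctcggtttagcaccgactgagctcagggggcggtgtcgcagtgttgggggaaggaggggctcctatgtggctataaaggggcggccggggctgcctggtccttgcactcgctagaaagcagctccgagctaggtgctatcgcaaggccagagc
Fam172a: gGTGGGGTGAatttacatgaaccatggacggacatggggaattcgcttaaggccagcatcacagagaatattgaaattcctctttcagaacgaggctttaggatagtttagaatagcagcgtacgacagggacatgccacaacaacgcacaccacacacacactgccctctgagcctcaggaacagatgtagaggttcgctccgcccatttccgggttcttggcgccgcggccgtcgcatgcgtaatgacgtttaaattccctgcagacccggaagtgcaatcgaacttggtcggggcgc
Dbp: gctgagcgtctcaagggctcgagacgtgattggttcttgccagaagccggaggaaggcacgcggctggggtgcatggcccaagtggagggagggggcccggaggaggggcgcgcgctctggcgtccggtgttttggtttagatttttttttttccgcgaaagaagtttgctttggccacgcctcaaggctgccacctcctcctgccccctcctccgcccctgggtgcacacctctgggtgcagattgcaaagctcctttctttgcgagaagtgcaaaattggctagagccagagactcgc
Both strands were searched, so the capitals in these windows are the reverse complements of the letters given. The E-box CACGTG was found in 7.15% of all 32851 promoter windows in the table, the D-box in 3.38%, the sterol element in 1.24% and the cyclic AMP element TGACGTCA in 1.79%. The glucocorticoid, ROR, interferon and heat shock elements were found in 0.475%, 0.7%, 3.44% and 0.603%. Where motifs overlap, each was counted. A match describes these letters only.

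No gene passed the threshold between the sides in edgeR, and 1.85% of genes had all libraries of a side above all of the other. Of 15373 genes tested, 0 were higher (0%) and 0 lower (0%) around lights-off at an adjusted p under 0.05 (smallest 0.109). Before adjustment, a p under 0.05 was found for 283 higher (1.84%) and 460 lower (2.99%), which makes 743 genes (4.83%). In 152 genes (0.989%) all 4 libraries around lights-off lay above all 4 around lights-on, and in 132 genes (0.859%) all 4 lay below, together 284 genes (1.85%). The median log2 difference of these genes, always given as lights-off minus lights-on, was 0.38 in the first set and -0.37 in the second. DESeq2 called 3 genes higher (0.0195%), Pagr1a, Car3 and Acadm, and 2 lower (0.013%), Zfp385b and Pitpnm3. On simulated counts with these library sizes, edgeR recovered 1.49% of genes changed 1.5-fold, 38.8% of those changed 2-fold and 84.8% of those changed 4-fold. Changes of 1.5-fold were thus mostly missed in the simulation. It drew each gene independently and without a genotype difference, so recovery in the real libraries may differ.

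Of the single libraries left out, WT ZT21 moved the counts at an unadjusted p under 0.05 and without overlap most. Without WT ZT21, 4218 genes had an unadjusted p under 0.05, and without WT ZT3, WT ZT9, WT ZT15, cKO ZT3 or cKO ZT15 the count was 305, 348, 412, 311 or 276. Genes without overlap numbered 2914 without WT ZT21. They numbered 547, 479, 790, 530 and 562 without WT ZT9, WT ZT15, cKO ZT9, cKO ZT15 and cKO ZT21. Fewer values must separate once a library is left out, and this count also rose, by less, without either ZT3 library. A rise alone therefore does not show that the count leaned on that library, and only the rise without WT ZT21 stood far apart. With both ZT21 libraries left out, which sets ZT9 and ZT15 against ZT3 alone, edgeR called 1641 genes higher and 1534 lower.

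The 14 genes of each direction with the smallest edgeR p, among those without overlap and with a mean of at least 10 CPM, were chosen, and those reported are described below. Their order and their separation chose them, so neither supports them, and each had an adjusted p of 0.657 in edgeR.

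**Figure D1:**
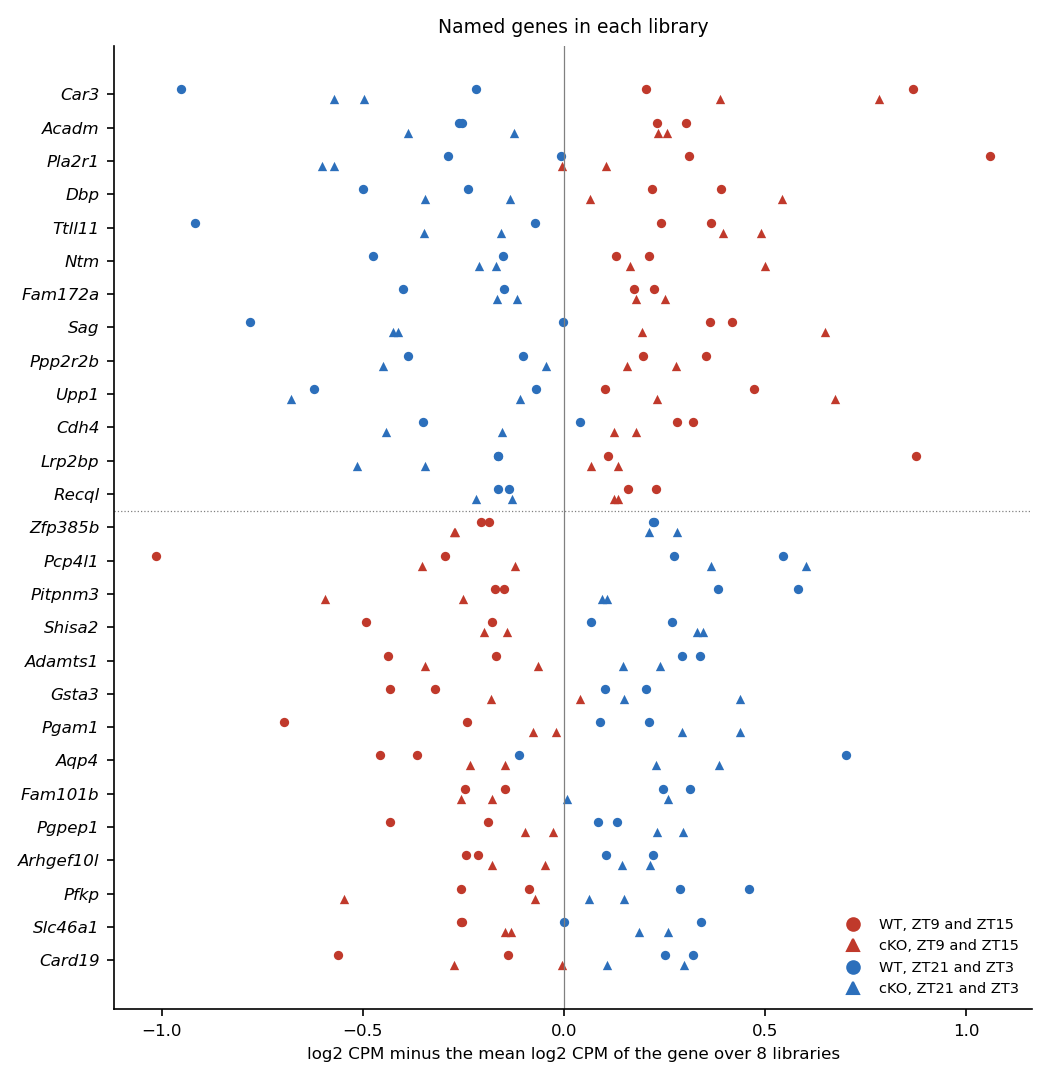
Log2 CPM of the named genes in each of the 8 libraries, minus the gene's mean over the libraries, with circles for WT, triangles for cKO, red for ZT9 and ZT15 and blue for ZT21 and ZT3. Every red symbol of a gene lies on 1 side of every blue symbol, which is how the genes were chosen, and single red symbols of Lrp2bp and Pla2r1 in WT lie far from the others.

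The clock output gene Dbp was higher around lights-off. Dbp had 89.8, 166.3, 147.7 and 107.5 CPM in WT at ZT3, ZT9, ZT15 and ZT21 and 115.6, 184.7, 132.7 and 99.9 CPM in cKO. ZT9 was the highest time in both genotypes. The side means were 157.8 ± 22.6 CPM around lights-off and 103.2 ± 11.0 CPM around lights-on (mean ± SD, n = 4), a log2 difference of 0.61 (SE 0.14).

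Of the 28 core clock genes tested, 2 were without overlap, Dbp among them (7.14%, against 1.85% of all genes), and 1 higher and 2 lower had an unadjusted p under 0.05 in edgeR. Npas2, a relative of Clock, was among the lower at -1.47 (SE 0.51). Npas2 had 6.66 and 4.02 CPM at ZT3 in WT and cKO against at most 2.0 CPM in each other library, so ZT3 alone stood apart, and without both ZT3 libraries the difference was -0.40. The activators Arntl and Clock had differences of -0.17 and 0.36, and Clock stood at 335.4 CPM in WT ZT9 against 102.9 to 139.8 CPM elsewhere, with -0.14 when that library was left out.

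Among the repressors the differences were -0.07 for Per1, 0.12 for Per2, 0.16 for Per3, -0.12 for Cry1, -0.09 for Cry2, 0.29 for Ciart, 0.04 for Bhlhe40 and 0.01 for Bhlhe41. Per1 had 43.8 and 41.8 CPM at ZT3 and 26.7 and 28.7 CPM at ZT21, so its highest and lowest times fell on the same side and averaged out. The REV-ERB genes Nr1d1 and Nr1d2 had -0.04 and 0.05, Rora 0.61 and Rorb 0.05. Rora had 943.9 CPM in WT ZT9 and 231.8 to 398.2 CPM elsewhere, and 0.21 without that library. The output factors Tef, Hlf and Nfil3 had -0.05, -0.10 and 0.14. The modifiers had 0.09 for Fbxl21, -0.06 for Btrc, -0.07 for Gsk3b, 0.03 for Csnk1d, 0.10 for Csnk1e and 0.36 for Usp2, and the clock-controlled kinase gene Wee1 had 0.16. None of these had an unadjusted p under 0.05, and many changed with the libraries included. Without both ZT3 libraries Ciart had -0.01, Usp2 0.07 and Rora 0.26, and without both ZT21 libraries Ciart had 0.73 and Usp2 0.76.

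**Figure D2:**
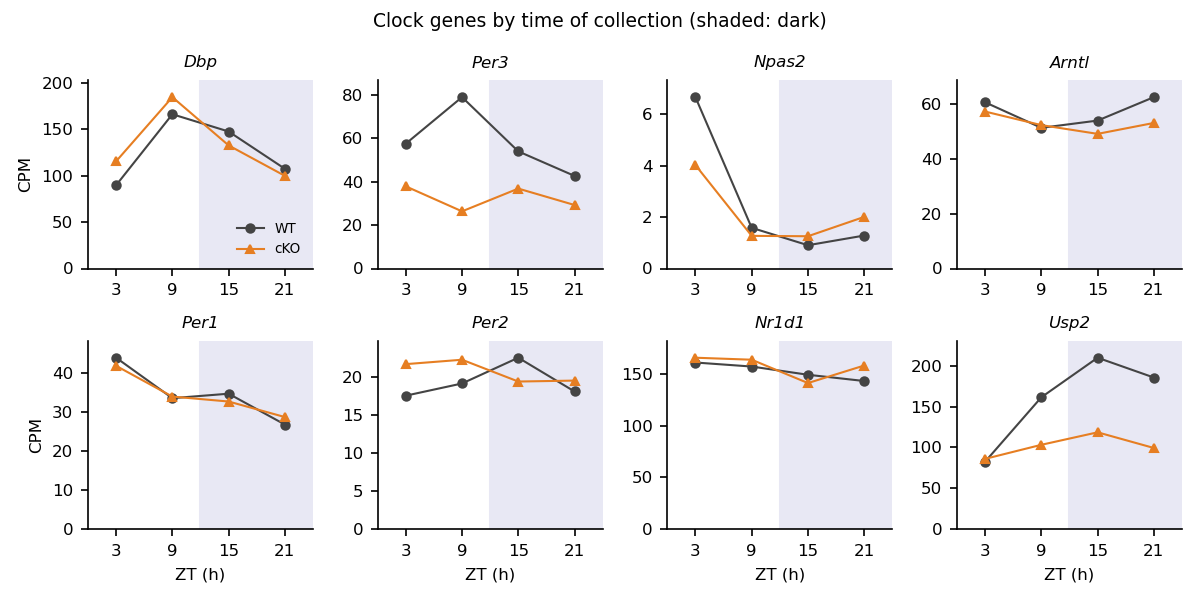
CPM of 8 clock genes by ZT in hours, with grey circles for WT and orange triangles for cKO, 1 library per point and the dark phase shaded. Dbp is highest at ZT9 in both genotypes, Npas2 is highest at ZT3, and Arntl, Per2 and Nr1d1 differ little between the sides.

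Transcripts of 2 photoreceptor signalling proteins were higher around lights-off. Sag encodes arrestin, which binds the activated visual pigment and ends its signal. It had 2667, 5887, 6116 and 4570 CPM in WT at ZT3, ZT9, ZT15 and ZT21 and 3413, 7179, 5237 and 3443 CPM in cKO. Both ZT9 and both ZT15 libraries were above all others, and WT ZT21 came nearest from the lights-on side. The means were 6105 ± 807 CPM and 3523 ± 785 CPM, a log2 difference of 0.79 (SE 0.22), or 1.73-fold. Guca1b encodes a calcium sensor of retinal guanylate cyclase and had a difference of 0.53 (SE 0.16), with 871.8 to 1130 CPM around lights-off and 585.7 to 834.5 CPM around lights-on.

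Sag and Guca1b were the 2 of 25 rod phototransduction genes without overlap (8%, against 1.85% of all genes), and 16 of the 25 had a positive difference, with a median of 0.07 against 0.02 for all genes. The rod transcription factor gene Nr2e3 was on the opposite side at -0.38 (SE 0.17), with overlapping libraries. Gnat1, which encodes rod transducin, had 0.01. Pitpnm3, a phosphatidylinositol transfer protein gene mutated in a human cone-rod dystrophy, was lower around lights-off. It had 214.3, 127.2, 129.1 and 186.9 CPM in WT at the 4 times in order and 153.0, 94.8, 120.4 and 154.3 CPM in cKO, a difference of -0.58 (SE 0.12). WT ZT3 was the highest library, and cKO was below WT on each side. The cone opsin gene Opn1sw, at -0.89 (SE 0.31), overlapped between the sides and was highest at ZT3.

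Car3 and Acadm led the genes of metabolism. Car3 encodes carbonic anhydrase III, an enzyme abundant in fat and muscle, and had 79.6, 177.5, 281.1 and 132.4 CPM in WT at ZT3, ZT9, ZT15 and ZT21 and 109.2, 201.5, 265.1 and 103.6 CPM in cKO. ZT15 was highest in both genotypes. The means were 231.3 ± 49.7 CPM and 106.2 ± 21.7 CPM, a log2 difference of 1.12 (SE 0.21), or 2.18-fold, with an adjusted p of 0.00746 in DESeq2. Of the 9 other adipocyte markers, Adipoq, Plin1, Cidec, Cfd and Lep were under the filter on low counts, and Lpl, Fabp4, Pparg and Retn had differences of 0.34, 0.08, -0.34 and -0.49. Without that filter 8 of the 10 adipocyte genes had a positive difference, with a median of 0.33 against 0.08 for the 5 tested. Genes of skeletal muscle took 0.111 to 0.159% of the counts around lights-off and 0.0895 to 0.134% around lights-on, and their part in the result was not tested. In bulk samples such as these, fewer cells of a type and less RNA per cell cannot be told apart.

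Acadm, the medium-chain acyl-CoA dehydrogenase of fatty acid oxidation, had 67.5, 94.5, 99.4 and 67.2 CPM in WT eyes and 73.9, 96.1, 94.8 and 61.5 CPM in cKO at the 4 times in order. The lights-off libraries lay close together in both genotypes. The difference was 0.51 (SE 0.10), or 1.42-fold, with an adjusted p of 0.00762 in DESeq2. Acadm was the 1 gene of 18 tested in the fasting and fatty acid oxidation list without overlap (5.56%, against 1.85% of all genes), and 12 of the 18 had a negative difference (median -0.11).

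Of 24 glycolysis genes 19 had a negative difference, 0 passed the adjusted threshold, and 5 had an unadjusted p under 0.05. Pgam1, phosphoglycerate mutase, had 504.6, 292.8, 401.6 and 549.0 CPM in WT eyes and 580.9, 449.6, 468.2 and 642.7 CPM in cKO, in the order ZT3, ZT9, ZT15 and ZT21. ZT21 was highest and ZT9 lowest in each genotype. Its difference was -0.51 (SE 0.14), and that of Pfkp, a phosphofructokinase, was -0.47 (SE 0.14), with 139.9 to 194.6 CPM against 213.7 to 281.5 CPM. The median of the list was -0.18, all 5 at an unadjusted p under 0.05 in edgeR were lower (20.8% against 4.83% of all genes) and 2 were without overlap (8.33% against 1.85%). The list took 1.112 to 1.53% of the counts around lights-off and 1.413 to 1.76% around lights-on, so the sides overlapped. The other 3 of these 5 were Aldoa at -0.44 (SE 0.18), Eno2 at -0.34 (SE 0.15) and the glucose transporter Slc2a3 at -0.41 (SE 0.18). The number at an unadjusted p under 0.05 was 0 without both ZT9 libraries, 2 without WT ZT9, WT ZT15, cKO ZT9 or cKO ZT15, and 3 without WT ZT3 or cKO ZT21.

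Of 29 sterol and fatty acid synthesis genes 22 had a negative difference (median -0.18), but the median was 0.03 without both ZT3 libraries. Srebf1, the transcription factor of lipid synthesis, was its 1 member without overlap (3.45%, against 1.85% of all genes), with 81.8 to 89.7 CPM around lights-off and 90.9 to 114.9 CPM around lights-on. Its difference was -0.28 (SE 0.12), and -0.16 without both ZT3 libraries, and the sides nearly touched.

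The other 9 named genes higher around lights-off had differences of 0.32 to 0.76. Pla2r1, the phospholipase A2 receptor, had 114.1 to 238.9 CPM around lights-off and 75.4 to 113.9 CPM around lights-on, a difference of 0.76 (SE 0.18) that was 0.56 without WT ZT9, its highest library. Ttll11, a tubulin polyglutamylase, had 25.9 to 30.8 CPM against 11.6 to 20.8 CPM (0.72, SE 0.18), and 0.48 without both ZT3 libraries. Ntm, the neural adhesion molecule neurotrimin, had 117.5 to 151.9 CPM against 77.2 to 96.7 CPM (0.50, SE 0.13). Cdh4, retinal cadherin, had a difference of 0.44 (SE 0.12) and was 0.27 without both ZT3 libraries. Ppp2r2b, a neuronal regulatory subunit of protein phosphatase 2A, had 0.48 (SE 0.14).

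Among the remaining 4, Upp1, which degrades uridine, had 11.3 to 16.8 CPM against 6.57 to 10.03 CPM (0.73, SE 0.20), and 0.46 without both ZT3 libraries. Lrp2bp, which encodes a binding partner of the receptor megalin, had 17.7 CPM in WT ZT9 and 10.09 to 10.6 CPM in the other lights-off libraries, a difference of 0.62 (SE 0.18) that was 0.42 without WT ZT9 and 0.38 without both ZT9 libraries. Fam172a had 0.41 (SE 0.11). The DNA helicase gene Recql had the smallest of these differences, 0.32 (SE 0.10), with 29.8 to 32.1 CPM against 23.5 to 25.0 CPM, so its libraries spread little within a side.

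Zfp385b, a zinc finger protein gene whose promoter window is printed above, had the smallest p of the named genes lower around lights-off. It had 62.0, 46.8, 46.2 and 62.2 CPM in WT at ZT3, ZT9, ZT15 and ZT21 and 64.7, 44.0, 44.1 and 61.7 CPM in cKO. Both times of each side were nearly level in both genotypes. The means were 45.3 ± 1.39 CPM and 62.6 ± 1.37 CPM, a difference of -0.47 (SE 0.09), or 1.38-fold, with an adjusted p of 0.00226 in DESeq2. Pcp4l1, a gene of the calmodulin-binding PCP4 family, had 70.4, 28.8, 47.4 and 85.1 CPM in WT eyes and 75.1, 53.6, 45.6 and 88.5 CPM in cKO, with ZT21 highest in each. Its difference of -0.87 (SE 0.18), or 1.83-fold, was the largest of the 14 named genes of this direction.

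Aqp4, the water channel of Müller glia and of the nonpigmented ciliary epithelium, had 82.3, 36.8, 39.2 and 46.8 CPM in WT eyes and 66.1, 45.6, 43.0 and 59.3 CPM in cKO at the 4 times in order. ZT3 was highest in each genotype. The difference was -0.63 (SE 0.18), and -0.37 without both ZT3 libraries. Shisa2, which retains Wnt and FGF receptors inside the cell, had 17.6 to 22.5 CPM against 25.97 to 31.5 CPM (-0.50, SE 0.12). Adamts1, a secreted protease of matrix proteoglycans whose promoter is printed above, had 28.4 to 36.8 CPM against 42.7 to 48.7 CPM (-0.50, SE 0.12). Gsta3, a glutathione transferase, had -0.45 (SE 0.12).

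The other 6 named genes lower around lights-off had differences of -0.34 to -0.48. They were Card19, with a caspase recruitment domain (-0.48, SE 0.15), Fam101b, a filamin-binding protein (-0.42, SE 0.12), Slc46a1, the folate transporter (-0.40, SE 0.12), Pgpep1, a peptidase (-0.37, SE 0.11), Arhgef10l, an exchange factor of small GTPases (-0.34, SE 0.10), and Pfkp, given above. Without both ZT9 libraries the difference of Card19 was -0.32.

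Lists of matrix, vessel and Müller glia genes, and of several other cell types, held mostly negative differences. Other cell types had positive medians, given below, and no member of any list passed the adjusted threshold. All 26 collagen and matrix genes had a negative difference, with a median of -0.30 against 0.02 for all genes and medians of -0.26 in WT and -0.34 in cKO. Of these, 8 were lower at an unadjusted p under 0.05 in edgeR (30.8% against 4.83%), Bgn, Col5a2, Col8a2, Fmod, Kera, Lox, Lum and Sparc, and 0 were without overlap. Lum, the corneal and scleral proteoglycan lumican, had 43.6, 12.96, 13.48 and 14.16 CPM in WT eyes and 35.5, 24.1, 17.7 and 37.2 CPM in cKO, a difference of -0.96 (SE 0.31). The WT libraries were level but for ZT3, whereas in cKO both lights-on libraries were high. Together the 26 genes took 0.198 to 0.229% of the counts around lights-off and 0.245 to 0.279% around lights-on. The number at an unadjusted p under 0.05 was 2 without WT ZT3, WT ZT15 or cKO ZT21, 16 without WT ZT21, 1 without cKO ZT15, and 4, 0 and 13 without both ZT9, ZT15 and ZT21 libraries. The median ran from -0.42 to -0.23 over all alternatives.

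The same direction was seen in 10 of 10 fibroblast markers (median -0.31, of which Lum is 1), 11 of 12 endothelial markers (-0.31) and 10 of 14 Müller glia markers (-0.31). It was also seen in 13 of 16 immune cell markers (median -0.39), 9 of 10 markers each of the retinal pigment epithelium (-0.27) and of melanocytes (-0.27), 10 of 13 ganglion cell markers (-0.26) and 11 of 14 amacrine cell markers (-0.21), so it was not particular to matrix, vessels and Müller glia. Oligodendrocyte markers, the other glial list, were positive in 6 of 8 (median 0.27, with 0.37 in WT and -0.15 in cKO). Medians were also positive for markers of horizontal cells (0.14), cornea and conjunctiva (0.12), nonpigmented ciliary epithelium (0.11) and skeletal muscle (0.09), among others. Esam, an adhesion molecule of endothelial junctions, was without overlap (1 of 12, 8.33%, against 1.85% of all genes) at -0.42 (SE 0.12), with 6.95 to 8.10 CPM against 8.61 to 11.3 CPM. Pdgfrb, the growth factor receptor of pericytes, was the 1 of 12 smooth muscle and pericyte genes without overlap (8.33%), at -0.28 (SE 0.12). Of 29 genes of aqueous humour formation and outflow 23 had a negative difference (median -0.27), and Mgp, a matrix inhibitor of calcification, had -0.80 (SE 0.21) with overlapping libraries. The Müller median was -0.11 without both ZT3 libraries and the endothelial median -0.20 without WT ZT3. These lists share members and tissues and are not independent of each other.

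**Figure D3:**
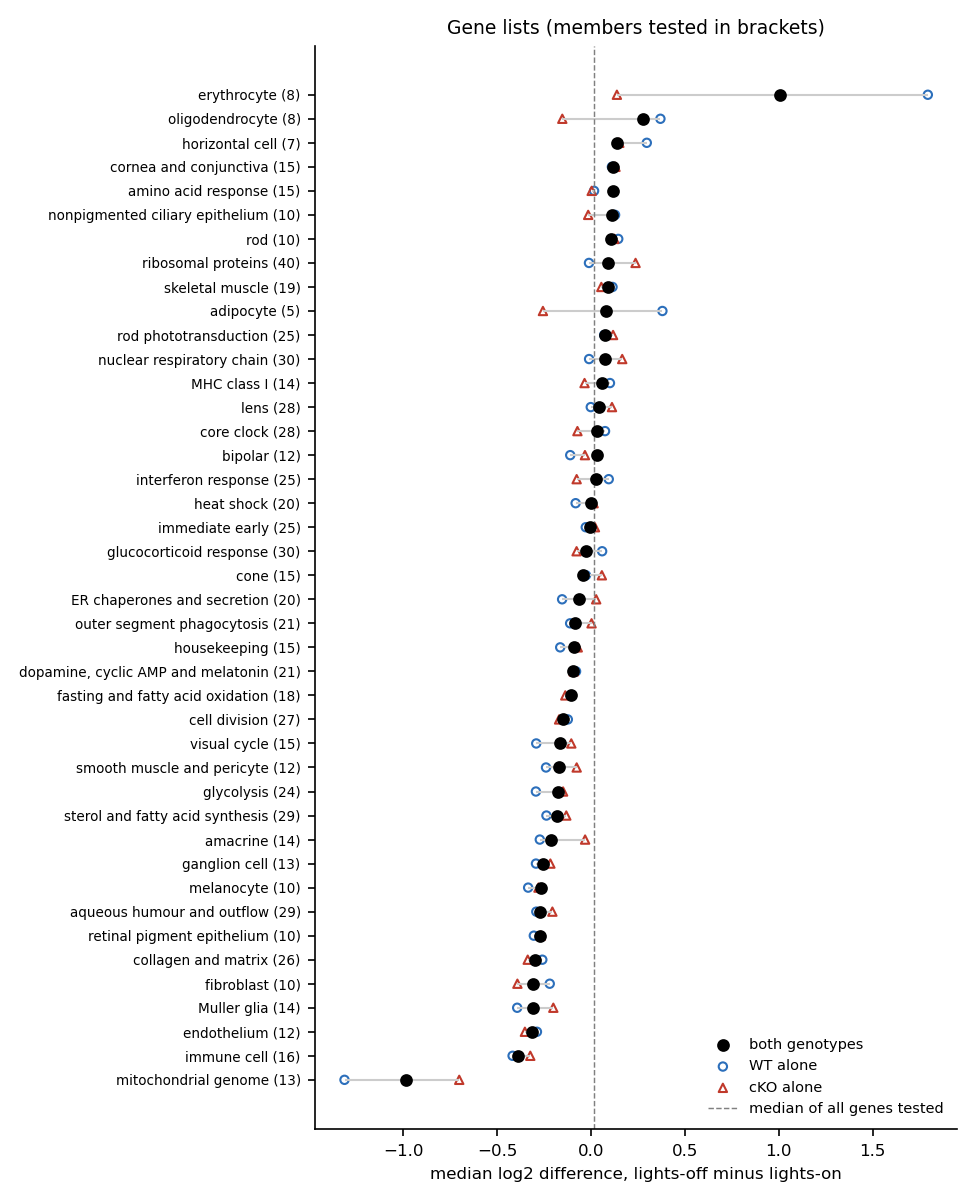
Median log2 difference, lights-off minus lights-on, of each gene list with at least 5 tested members, with a filled circle for both genotypes, an open circle for WT, an open triangle for cKO and a dashed line for all genes. Matrix, fibroblast, endothelial and Müller glia lists lie near -0.31 in the joint estimate, and the mitochondrial list lies at -0.99 and the erythrocyte list at 1.01, each with a wide gap between the genotypes.

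All 13 messenger RNAs of the mitochondrial genome had a negative difference (median -0.99), but they took 5.49, 1.31, 1.35 and 1.09% of the counts in WT at ZT3, ZT9, ZT15 and ZT21 and 6.12, 3.69, 2.08 and 3.63% in cKO. ZT3 was the high time and ZT21 overlapped with the lights-off side. Without both ZT3 libraries the median was -0.08. Ribosomal protein genes had a positive difference in 34 of 40 (median 0.09), which turned to -0.17 without both ZT3 libraries. Erythrocyte markers had a median of 1.01 and took 1.11% of the counts in WT ZT15 against 0.0694 to 0.243% in the other libraries.

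Lists of signalling and stress showed few members on 1 side. Of 30 glucocorticoid response genes, Lcn2, which encodes lipocalin 2, was without overlap (3.33%, near the 1.85% of all genes) at 0.62 (SE 0.19), with 3.79 to 4.67 CPM against 2.07 to 3.17 CPM, and 3 higher and 2 lower had an unadjusted p under 0.05 in edgeR (16.7% against 4.83%). Of 14 genes of MHC class I antigen presentation, Psmb9 and Tap2 were without overlap (14.3% against 1.85%) at 0.29 (SE 0.17) and 0.11 (SE 0.10). Psmb9 had 0.19 without both ZT21 libraries and Tap2 0.07 without both ZT3 libraries, while B2m, the light chain, had -0.53 (SE 0.23). In this list 8 genes had a positive and 6 a negative difference. Together the 14 took a lower share of the counts around lights-off, 0.06218 to 0.07064% against 0.07249 to 0.07575% around lights-on. Of 25 immediate early genes 0 were without overlap, with Klf4 at 0.67 (SE 0.27) and Dusp6 at -0.99 (SE 0.40). Of 25 interferon response genes, 20 heat shock genes and 21 genes of dopamine, cyclic AMP and melatonin 0 were without overlap in each list, with medians of 0.02, 0.00 and -0.10. Among the 20 ER chaperone and secretion genes 5 were lower at an unadjusted p under 0.05 in edgeR, Canx, Hyou1, Pdia3, Sdf2l1 and Serpinh1 (25% against 4.83% of all genes), and 0 were without overlap. In this list 14 genes had a negative and 6 a positive difference, and its median was -0.15 in WT but 0.03 in cKO. Hyou1 had 63.1 and 57.5 CPM at ZT3 and 13.0 to 32.2 CPM at the other times.

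The differences between the sides in WT and in cKO, which come from separate mice and libraries collected at the same times, were set side by side. Over the 10265 genes with a mean of at least 10 CPM, 72.6% had the same sign in both genotypes, and across genes r was 0.54. Within WT alone, 1599 genes (10.4%) were higher and 1708 (11.1%) lower without overlap, and within cKO alone 2901 (18.9%) and 2838 (18.5%). In both genotypes, 519 (3.38%) were higher and 509 (3.31%) lower, together 1028 (6.69%), and 173 (1.13%) separated in opposite directions. Of 174 genes lower in WT without overlap and by at least 0.5, 96.6% were negative in cKO and 52.3% had no overlap there, against 31.9% of all genes separating the same way. Of 177 genes higher in WT by the same rule, 83.6% were positive in cKO and 39% were without overlap. In the reverse direction, 25.9% of 108 genes higher in cKO and 6.84% of 307 lower in cKO were without overlap in WT, against 15.1% of all genes. Genes are not independent replicates, and each library enters all of these values.

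The test of the difference itself found 0 genes (edgeR, smallest adjusted p of 1) whose side difference differed between WT and cKO, with 38 (0.247%) at an unadjusted p under 0.05, 0 in limma-voom and 2 in DESeq2, the predicted genes Gm20458 and Gm9803. This term has 4 residual degrees of freedom.

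**Figure D4:**
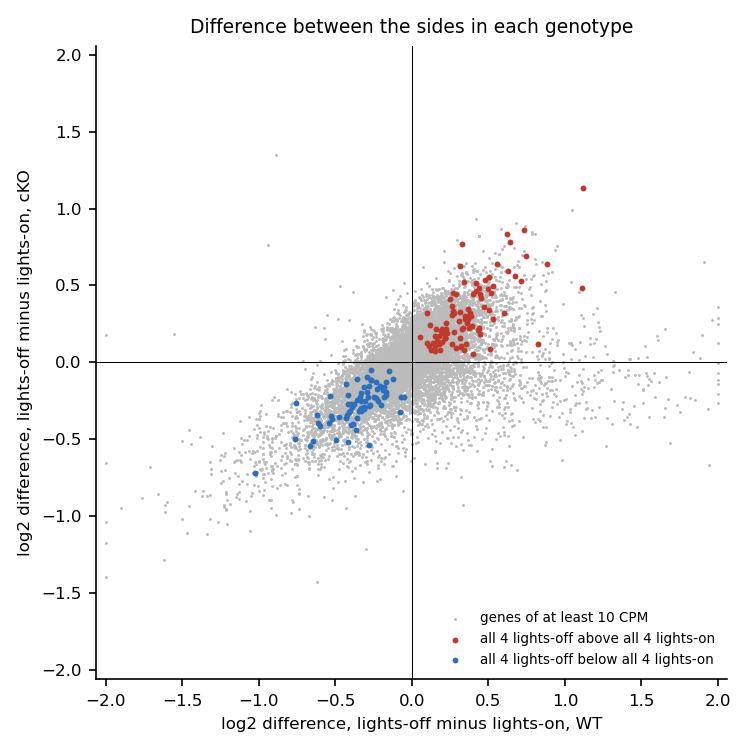
Log2 difference, lights-off minus lights-on, in WT (x axis) and in cKO (y axis) for genes of at least 10 CPM, with values beyond 2 drawn at 2 and genes without overlap in red and blue. Of the points, 72.6% have the same sign in both genotypes, with a wide scatter (r = 0.54). A band to the right holds genes with a positive difference in WT and a value near 0 in cKO.

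Single libraries stood apart from their side. In 496 genes of at least 10 CPM, WT ZT9 lay over 1.5-fold above all 7 other libraries, whereas no other library did so in more than 55 genes. Lrp2bp, Pla2r1, Clock and Rora are among these genes, as their values above show. The median absolute log2 difference over genes was 0.474 between WT ZT3 and WT ZT21, which share a side, and 0.114 between WT ZT15 and WT ZT21, which do not. Pairs of the same genotype and side had a median of 0.209 and pairs of the same genotype and other sides 0.246. Among the 152 genes higher without overlap the lowest library was a ZT3 library in 108, and among the 132 lower the highest was one in 95.

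**Figure D5:**
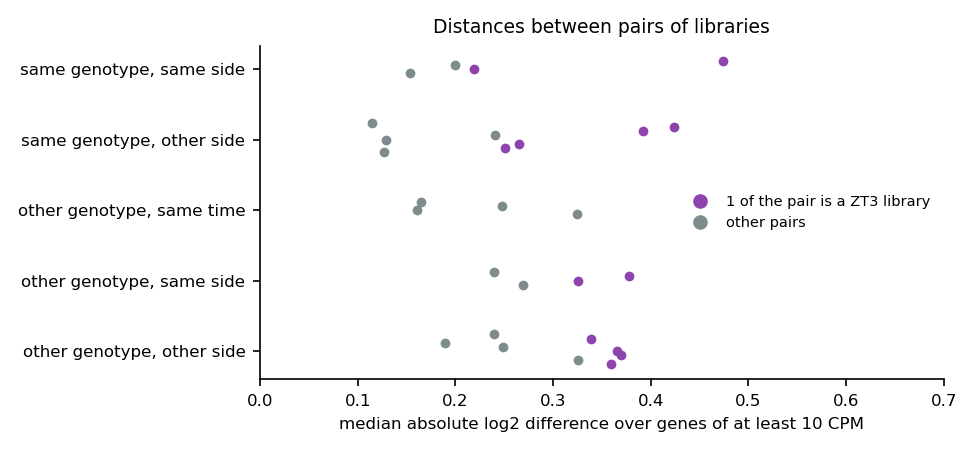
Median absolute log2 difference over 10265 genes for each of the 28 pairs of libraries, grouped by whether the pair shares genotype, side or time, with pairs of a ZT3 library and a library of another time in purple. The pairs with ZT3 lie highest in most groups, and 3 pairs of the same genotype from opposite sides lie lowest of all.

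Pagr1a had the smallest p of all genes and is described together with a gene that overlaps it. It had 5.23 to 10.8 CPM around lights-off and 0.31 to 0.83 CPM around lights-on, a difference of 3.80 (SE 0.38, adjusted p 0.109 in edgeR and 6.97e-14 in DESeq2). The predicted gene Gm42742 overlaps Pagr1a on the same strand in GENCODE M21 and had the opposite pattern, at -0.60 (SE 0.14). Their summed level was 21.7 ± 1.76 CPM around lights-off and 22.4 ± 3.10 CPM around lights-on, a log2 difference of -0.05. The sum was level while its division between the 2 genes was not. Whether expression or the assignment of reads differed between the sides was not tested.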

How the data were processed

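The authors deposited 1 table of raw counts per gene symbol for 8 libraries, without normalization, per the file headers and values. How reads were aligned and counted, on which build and strand, is not given in the sources used here. Without strand, genes that overlap on opposite strands cannot be told apart. How reads were divided between genes that overlap on the same strand, such as Pagr1a and Gm42742, is not given either. The table holds 32544 symbols, and 27 that a spreadsheet had turned into dates were left out (0.123 to 0.145% of the counts).

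The counts were fitted with edgeR 4.0.16 under R 4.3.3 (TMM, filterByExpr by side, quasi-likelihood F test with genotype as a covariate, 5 residual degrees of freedom, Benjamini-Hochberg adjustment over 15373 genes, threshold 0.05). DESeq2 1.42.0 and limma-voom (limma 3.58.1) were alternatives, as were other scalings, no filter, no genotype term, time as a factor with 4 levels, each library or time left out, and each genotype alone. Without overlap means that all 4 libraries of a side lie above all 4 of the other. The fit was tested on simulated counts, where 8 of 91 calls were false. Figures were drawn with matplotlib 3.10.9.

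Genes named are Nr3c1, the 14 of each direction without overlap and with the smallest p, at a mean of at least 10 CPM and leaving out predicted gene symbols, every core clock gene, and list members without overlap. Others that are given as list examples were chosen after their values were seen. Results of a few of these genes are not reported here. The libraries, the 45 gene lists and the rules were chosen with earlier results of these data known. Promoter windows came from RefSeq (GRCm38.p6). They covered 11389 of the genes tested (74.1%), under the 80% needed, so motif shares were not compared between gene sets. The 95% binomial interval (Wilson) of a share of counts was at most 0.0244 percentage points wide on each side of the value, and covers counting error only.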

Additional observations from a re-analysis of the deposited data

Results flagged for a closer look

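In total 14 results were flagged, and 144 groups were examined. Some flags are contrasts between WT and cKO, sought among all tested members of the gene lists. The 144 do not count each of those members, so 14 is not a share of 144. Chance flags about 1 in 20 groups of 4, a rate that does not apply to the contrasts. In 8 of the 14 flags 1 library lay far from the other 3 of its side. Lrp2bp had 17.69 CPM in WT ZT9 against 10.09 to 10.58 CPM in the other lights-off libraries. Zfp385b had 64.66 CPM in cKO ZT3 against 61.67 to 62.17 CPM, a small step in a narrow group. Glucocorticoid response genes took 0.2038% of the counts in WT ZT9 against 0.2502 to 0.257% in the rest of its side, and nuclear respiratory chain genes 0.4486% against 0.5285 to 0.5399%. Erythrocyte genes took 1.109% in WT ZT15 against 0.07843 to 0.2435%. In WT ZT21, interferon response genes took 0.03229% against 0.02569 to 0.02667%, rod phototransduction genes 7.292% against 6.522 to 6.648%, and adipocyte genes 0.01992% against 0.01243 to 0.01363%.

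In 6 members of the gene lists both libraries of a side moved 1 way in WT and the opposite way in cKO. The lists hold 820 entries, not all of them tested, and 173 of all 15373 genes tested (1.13%) separated in opposite directions. The side difference in cKO minus that in WT was -0.89 for Fabp4, 1.17 for Gdf15, 0.22 for Bhlhe23, 0.35 for Adcy3, -0.48 for Cx3cr1 and 1.02 for Ifi44 on the log2 scale. In edgeR's test of that difference each had an adjusted p of 1 over all genes. Gdf15 and Ifi44 were below 2 CPM in all 8 libraries.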

How the results depend on the processing

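The counts at an unadjusted p under 0.05 and without overlap moved with most choices, and those at an adjusted p under 0.05 with few. The other scalings changed little, with 742 and 733 genes at an unadjusted p under 0.05 in edgeR and 287 and 288 without overlap. limma-voom gave 678 genes at an unadjusted p under 0.05. Genes higher at an adjusted p under 0.05 numbered 1 without a filter on low counts and 1 without the genotype term (Pagr1a both times), 3 in DESeq2 and 1641 without both ZT21 libraries, and 0 on leaving out any 1 library. Genes lower numbered 2 in DESeq2, 1 without both ZT9 libraries (Rpl34-ps1), 1534 without both ZT21 libraries and 0 to 1 on leaving out 1 library. At an unadjusted p under 0.05 the 743 genes became 1313 without the filter, 2807 with time as a factor, 399 without both ZT3, 265 without both ZT9, 170 without both ZT15 and 6025 without both ZT21 libraries, 68 in WT alone and 276 to 4218 on leaving out 1 library. Genes without overlap were 384 to 2914 on leaving out 1 library, where fewer values must separate, and 1028 with separation asked within each genotype only. Genes that differ between genotypes in their side difference were 2 in DESeq2. The cause of these shifts was not tested. Of the 28 named genes, 4 passed in DESeq2 and 18 without both ZT21 libraries, and 0 under the other alternatives run on them. Their direction is fixed by how they were chosen. The labels carry no replicate numbers, so WT and cKO libraries could be matched only by time of collection. The main fit treats the WT and cKO libraries of a time as separate, although each side has only 2 times. The fit with time as a factor matches them by time, and gave the 2807 genes above and 0 at an adjusted p under 0.05 in edgeR. With 1 library per genotype and time, and with 38.8% of simulated 2-fold changes recovered, smaller differences may have gone undetected.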
